A study of Mus musculus with 12 samples.

Results

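The small leucine-rich proteoglycans are secreted matrix proteins built from leucine-rich repeats, and the genes of 8 of them were read here: Dcn (decorin), Bgn (biglycan), Aspn (asporin), Lum (lumican), Kera (keratocan), Fmod (fibromodulin), Prelp (prolargin) and Ogn (osteoglycin). They were taken by name, as a list of family members drawn up with earlier results of these arrays known. All 8 had at least 1 probe set on the Affymetrix Mouse Genome 430A 2.0 array, 18 probe sets in all, out of 12393 genes that could be named. All 8 also passed the filter on dim genes that left 10674 genes for testing.

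The family is known for binding fibrillar collagen and for setting how thick and how evenly spaced collagen fibrils become. Class I members (decorin, biglycan, asporin) include carriers of chondroitin or dermatan sulfate chains and binders of TGF-beta family growth factors. Class II members (lumican, keratocan, fibromodulin, prolargin, osteomodulin) include the keratan sulfate proteoglycans of cornea, tendon and cartilage, and class III holds osteoglycin, epiphycan and opticin. In fibroblasts, decorin and biglycan are among the main proteoglycans laid down around the cells.

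The cells were mouse embryonic fibroblasts (MEFs), the connective tissue cells that grow out of minced embryos. They were seeded at 20000 cells per 35 mm dish in medium with 10% fetal bovine serum. On the next day all cultures moved to a medium with 15% serum and 40 ng/ml basic fibroblast growth factor. They were treated with a chemical combination known by the code 6TCF or with one known as SGCF. The components of neither are given in the sources used here. Days 0, 5 and 10 were each sampled on 2 arrays per arm, which makes 6 groups and 12 arrays. No untreated culture was sampled at day 5 or 10, so a change from day 0 cannot be told apart from time in culture or the change of medium. Strain, embryo age and whether the 2 arrays of a group came from separate cultures are not given, and p-values then measure only the spread between these arrays, which may be technical. The small number of arrays limits the precision.

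Values are given as log2 levels, that is log2(intensity + 16) after quantile normalization, and they understate the changes of dim genes. A gene was called when its Benjamini-Hochberg adjusted p over 10674 genes in limma was under 0.05. All 10 fibroblast markers read were above the filter level, a log2 level of 5.25, in all 6 groups. Their levels changed: 3 were called higher and 3 lower at day 5 of 6TCF, and 3 and 6 at day 10. In SGCF 1 was higher and 4 lower at day 5, and 4 and 2 at day 10. Of all genes tested, 27.7%, 43.2%, 25.5% and 38.8% were called in these comparisons. The 6 arrays of 6TCF were brighter as deposited (medians 102.4 to 141) than the 6 of SGCF (60.86 to 86.23), so an array batch and the arm cannot be told apart in comparisons between arms. The signal of the 3' over the 5' actin control, larger in more degraded RNA, was 0.34, 0.82 and 1.04 on the log2 scale at days 0, 5 and 10 of 6TCF and 0.33, 0.45 and 0.46 in SGCF. The same measure on the Gapdh control was 0.39, 0.50 and 0.49 in 6TCF and -0.02, 0.10 and 0.11 in SGCF, so it differed between the arms already at day 0. The part of RNA quality in the results below was not tested. In these bulk samples, fewer cells of a type and less RNA per cell cannot be told apart.

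Several of the genes are neighbours in the genome. In the RefSeq annotation of assembly GRCm38.p6, Dcn, Lum, Kera and Epyc follow each other on chromosome 10, Aspn, Omd and Ogn on chromosome 13, and Optc, Prelp and Fmod on chromosome 1, while Bgn lies on chromosome X. RefSeq promoter sequences, 250 bases before to 50 after the transcription start, matched 6 of the 8 members (Kera, Ogn, Aspn, Fmod, Bgn and Prelp). The 4 below are shown because their genes had the steepest or most arm-dependent time courses. Kera started below the filter level and rose. Aspn and Ogn fell by day 5 of SGCF and then rose, Aspn only part of the way back. On its brightest probe set, Fmod fell far more in SGCF than in 6TCF. Sequences are 5′ to 3′ on the plus strand, the coding strand of all 4 genes, and capitals mark matches on either strand to any of 5 short motifs. The motifs searched were TATAAA (a core promoter box), TGANTCA (AP-1), TGACGTCA (cAMP response element), CTTTG (core of the TCF/LEF site) and CAGACA (SMAD box). The windows are Kera at chr10:97606955-97607254, Aspn at chr13:49544193-49544492, Ogn at chr13:49607765-49608064 and Fmod at chr1:134037004-134037303, in GRCm38.p6.
Kera: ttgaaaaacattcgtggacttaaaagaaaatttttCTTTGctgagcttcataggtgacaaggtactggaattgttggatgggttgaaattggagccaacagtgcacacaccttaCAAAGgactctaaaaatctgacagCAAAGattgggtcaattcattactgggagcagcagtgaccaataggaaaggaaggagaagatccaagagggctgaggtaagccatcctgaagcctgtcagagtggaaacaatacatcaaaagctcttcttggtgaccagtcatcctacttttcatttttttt
Aspn: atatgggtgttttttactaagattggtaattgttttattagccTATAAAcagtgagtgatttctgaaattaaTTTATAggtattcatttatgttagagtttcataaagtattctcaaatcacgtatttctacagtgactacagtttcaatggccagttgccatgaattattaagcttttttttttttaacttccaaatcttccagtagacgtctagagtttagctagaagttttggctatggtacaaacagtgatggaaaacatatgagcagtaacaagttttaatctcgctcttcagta
Ogn: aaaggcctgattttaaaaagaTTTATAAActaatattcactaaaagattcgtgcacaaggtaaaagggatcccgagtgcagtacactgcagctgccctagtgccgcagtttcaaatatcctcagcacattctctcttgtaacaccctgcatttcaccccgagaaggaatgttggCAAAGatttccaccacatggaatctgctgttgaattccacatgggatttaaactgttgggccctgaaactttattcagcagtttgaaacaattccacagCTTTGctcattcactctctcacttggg
Fmod: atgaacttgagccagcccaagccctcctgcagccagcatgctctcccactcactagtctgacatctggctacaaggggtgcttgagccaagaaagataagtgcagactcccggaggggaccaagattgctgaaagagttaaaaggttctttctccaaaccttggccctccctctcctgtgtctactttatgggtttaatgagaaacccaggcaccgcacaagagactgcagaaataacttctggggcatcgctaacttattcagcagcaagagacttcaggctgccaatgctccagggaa

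The Kera window held CTTTG or its complement 3 times, beginning at positions -215, -136 and -112 from the transcription start. The Aspn window held 2 TATAAA matches, beginning at -207 and -178. The Ogn window held 2 TATAAA matches that overlap each other, one on each strand, and 2 CTTTG matches. In the Fmod window none of the 5 motifs matched. Such matches are common: CTTTG is found in 53.9% of the 32851 promoter windows of the same length, TATAAA in 13.6%, CAGACA in 21.0%, TGANTCA in 7.81% and TGACGTCA in 1.79%. The G and C content was 41.0% for Kera, 31.0% for Aspn, 42.3% for Ogn and 51.0% for Fmod, against a median of 52.7% over all windows. A match is a description of letters and not of a bound site.

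The members split into genes that rose and genes that fell, in both arms. By day 5 of 6TCF, 3 of 8 had risen (Dcn, Lum and Kera) and 4 had fallen (Aspn, Ogn, Fmod and Bgn), where 27.7% of all genes tested were called, 15.1% higher and 12.6% lower. By day 10 of 6TCF, 3 were higher and 3 lower (background 43.2%, or 23.2% higher and 20.0% lower). By day 5 of SGCF, 2 were higher (Dcn and Lum) and 5 lower (background 25.5%, or 12.8% higher and 12.7% lower). By day 10 of SGCF, 3 were higher and 4 lower (background 38.8%, or 20.5% higher and 18.3% lower). The median change of the 8 was -0.39 and -0.25 at days 5 and 10 of 6TCF and -1.50 and -0.20 in SGCF. The median over all genes was between -0.01 and 0.03 in all 9 comparisons. Quantile normalization gives every array the same set of values, so it holds that median near no change in advance.

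**Figure D1:**
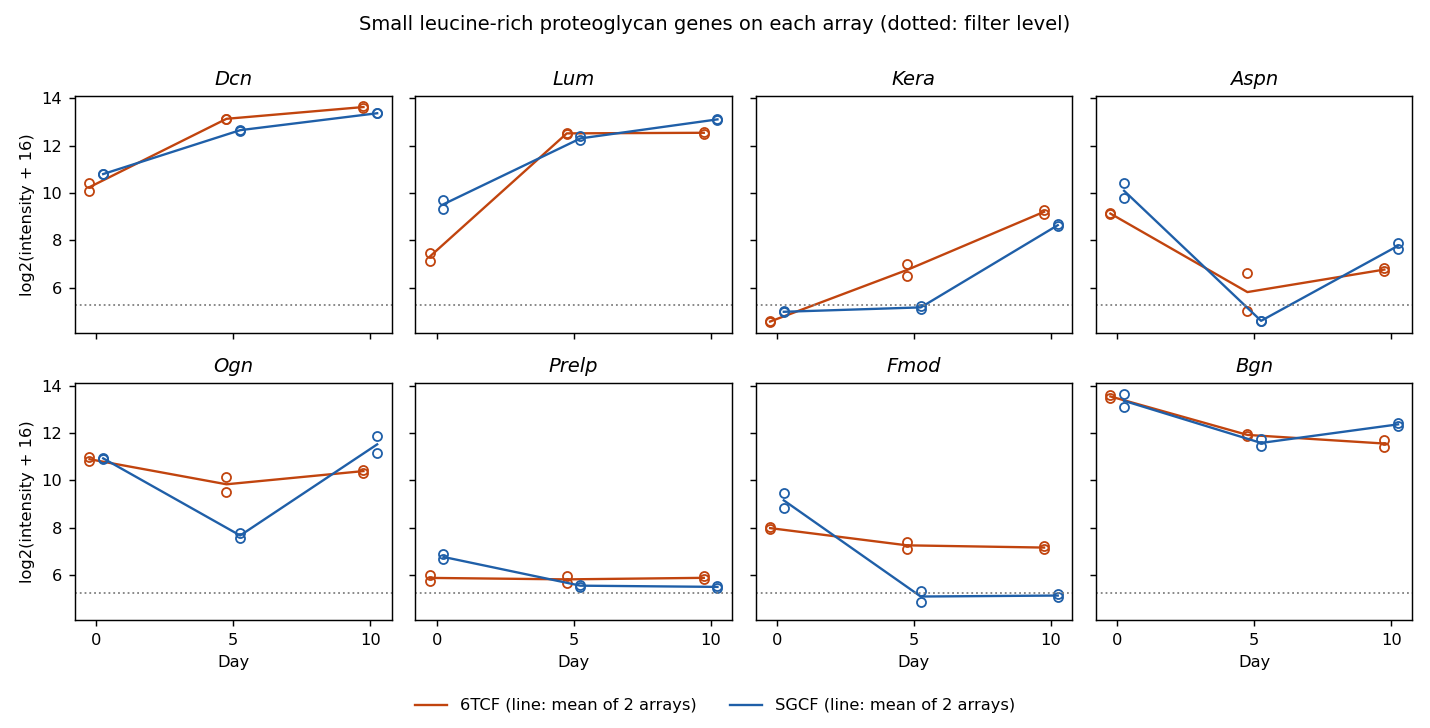
Log2 level, log2(intensity + 16) after quantile normalization, of the 8 genes on each of the 12 arrays (circles) against day, with lines through the means of 2 arrays per group and the filter level of 5.25 dotted. Dcn, Lum and Kera end far above their day 0 values in both arms, and the SGCF lines of Aspn and Ogn dip at day 5 and then rise, Aspn to a day 10 level still below day 0.

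Decorin, a class I proteoglycan with a single glycosaminoglycan chain, binds collagen I and TGF-beta. Dcn measured 10.42 and 10.07 at day 0 of 6TCF, 13.12 and 13.14 at day 5, and 13.60 and 13.65 at day 10. In SGCF it measured 10.78 and 10.81, then 12.63 and 12.67, then 13.37 and 13.36. The 3 groups of each arm did not overlap, and the arrays of a group were close together. Dcn rose by 2.89 ± 0.13 (SE, n = 2 arrays per group) by day 5 and 3.38 ± 0.13 by day 10 of 6TCF, and by 1.85 ± 0.13 and 2.57 ± 0.13 in SGCF, with limma adjusted p between 3.2e-09 and 5.33e-07. The fold at day 10 was 10.4 in 6TCF and 5.93 in SGCF. Between days 5 and 10 it rose further by 0.71 ± 0.13 in SGCF (adjusted p = 0.00165). The later rise of 0.50 ± 0.13 in 6TCF (adjusted p = 0.0222) lost its call when any of the 4 arrays was left out, with adjusted p of 0.0563 to 0.114.

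Biglycan, the closest relative of decorin, carries chondroitin or dermatan sulfate chains and also signals to Toll-like receptors. Bgn measured 13.63 and 13.47 at day 0 of 6TCF, 11.97 and 11.88 at day 5, and 11.41 and 11.71 at day 10. The SGCF arrays gave 13.64 and 13.08, then 11.44 and 11.73, then 12.43 and 12.31. In each arm the day 0 arrays were above all later ones. Bgn fell, with log2 changes of -1.63 ± 0.18 and -1.99 ± 0.18 at days 5 and 10 of 6TCF, a 3.97-fold decrease at day 10, and -1.78 ± 0.18 and -0.99 ± 0.18 in SGCF, with limma adjusted p of 4.18e-06 to 0.00107. In SGCF it came back by 0.79 ± 0.18 between days 5 and 10 (adjusted p = 0.00888). That call was lost without day 5 replicate 1 (0.64, adjusted p = 0.0824) or day 10 replicate 1 (0.72, adjusted p = 0.0586). The 3 Bgn probe sets gave the same calls in all 4 changes from day 0, with changes of -1.63 to -1.82 at day 5 of 6TCF and -1.78 to -1.92 at day 5 of SGCF.

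Asporin, which has a run of aspartate residues in place of a chain attachment site, competes with decorin for collagen and is known as an inhibitor of TGF-beta and BMP2. Aspn measured 9.11 and 9.15 at day 0 of 6TCF, 5.00 and 6.62 at day 5, and 6.84 and 6.69 at day 10. In the SGCF arm the values were 9.77 and 10.41, then 4.61 and 4.59, then 7.64 and 7.90. Day 0 was highest in both arms, and in SGCF day 5 lay below the filter level. Aspn fell by 5.49 ± 0.38 by day 5 of SGCF (limma adjusted p = 5.95e-07). Since day 5 lay below the filter level, the size of that fall depends on how dim values are treated, and it ranged from -6.87 to -3.98 over the alternatives, with a pseudocount of 1 and of 64 at the ends. By day 10 the difference from day 0 was -2.32 ± 0.38, since it had risen by 3.17 ± 0.38 after day 5 (adjusted p = 0.000113). In 6TCF it fell, with log2 changes of -3.32 ± 0.38 by day 5 and -2.36 ± 0.38 by day 10 (adjusted p = 3.92e-05 and 0.000353).

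The 2 day 5 arrays of 6TCF were farther apart for Aspn than any other pair, and the later change in that arm depended on them. The change from day 5 to day 10 was 0.95 ± 0.38 (adjusted p = 0.106), 0.14 without day 5 replicate 1 and 1.76 without day 5 replicate 2 (adjusted p = 0.76 and 0.0021). The other Aspn probe set, 1416652_at, gave -3.36, -2.31, -5.64 and -2.56 for days 5 and 10 of 6TCF and SGCF, each called, and rose by 1.05 ± 0.19 between days 5 and 10 of 6TCF (adjusted p = 0.00546 over probe sets).

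**Figure D2:**
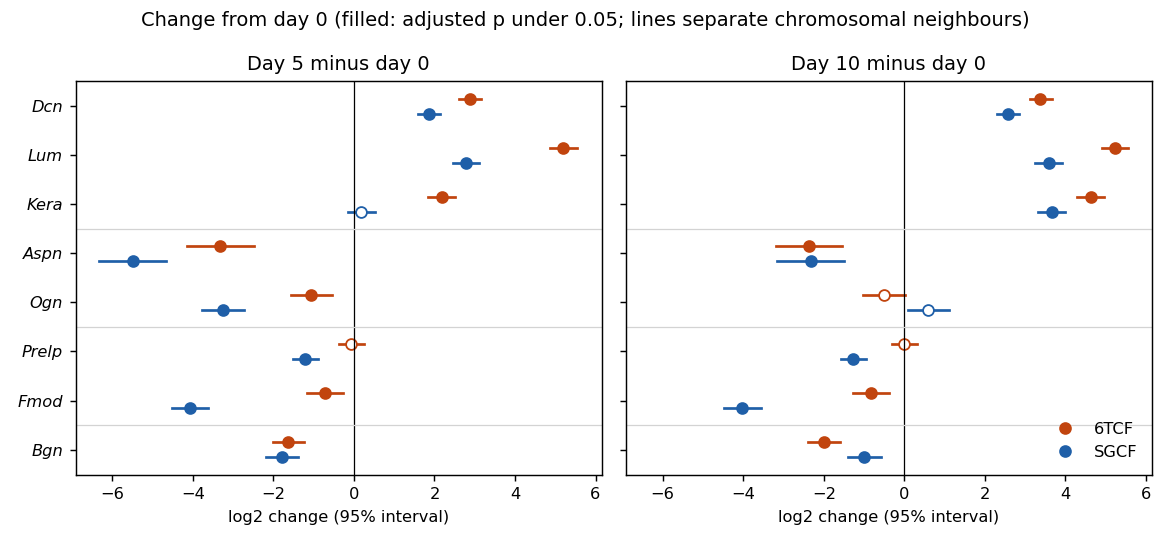
Log2 change from day 0 at day 5 (left) and day 10 (right) for each gene in 6TCF and SGCF, with 95% intervals from the limma fit over 12 arrays. Filled points had an adjusted p under 0.05, and grey lines separate groups of chromosomal neighbours. The 3 genes of chromosome 10 lie to the right of 0, and Aspn, Fmod and Bgn to the left.

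Lumican, a class II keratan sulfate proteoglycan of the cornea and of connective tissue, limits the width of collagen fibrils. Lum measured 7.48 and 7.14 at day 0 of 6TCF, 12.53 and 12.50 at day 5, and 12.57 and 12.51 at day 10. In SGCF it measured 9.71 and 9.33, then 12.22 and 12.39, then 13.08 and 13.13. The arms lay apart at day 0 and close together at day 5. Lum was the gene with the largest rise of all 10674 by day 5 of 6TCF, at 36.8-fold, and its level did not differ between days 5 and 10 there beyond the spread (0.03 ± 0.15, 95% interval -0.31 to 0.36, adjusted p = 0.931). In SGCF it rose by 2.78 ± 0.15 by day 5 and by 0.80 ± 0.15 between days 5 and 10 (limma adjusted p = 1.12e-07 and 0.00259). Markers of mesothelial cells, the lining cells of body cavities, were read beside these genes. The summed normalized intensity of the 5 of 8 such markers on the array was 1337 to 1526 at day 0, 2985 to 3004 at day 5 and 3515 to 3948 at day 10 of 6TCF. In SGCF it was 457 to 502.8, then 389.8 to 466.7, then 296.2 to 404.9, and Cdh1 was below the filter level in all 6 groups. The markers did not move as 1 set: of the 4 tested, 3 rose (Upk3b, Wt1 and Krt19) and Msln fell at both times of 6TCF. In SGCF 1 rose (Wt1) and 2 fell (Msln and Krt19) at both times, and Upk3b was not called. Over all genes 15.1% and 23.2% were called higher and 12.6% and 20.0% lower at days 5 and 10 of 6TCF. In SGCF these shares were 12.8% and 20.5% higher and 12.7% and 18.3% lower. The part of these cells in the rises of Lum, Dcn and Kera was not tested.

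Keratocan, a close relative of lumican, is known mainly from the corneal stroma. Kera measured 4.55 and 4.59 at day 0 of 6TCF, 6.51 and 6.99 at day 5, and 9.11 and 9.30 at day 10. The SGCF values were 5.01 and 4.95, then 5.10 and 5.23, then 8.58 and 8.69. Day 0 of both arms and day 5 of SGCF were below the filter level, and the other groups were above it. In 6TCF Kera rose at each step, by 2.18 ± 0.15 to day 5 and 2.46 ± 0.15 from day 5 to day 10. In SGCF the change to day 5 was 0.19 ± 0.15 (95% interval -0.15 to 0.52, limma adjusted p = 0.42) and the rise came afterwards, by 3.47 ± 0.15 (adjusted p = 5.44e-08). At the bottom of the scale these folds depend on the pseudocount: the rise to day 5 of 6TCF was 3.40 with a pseudocount of 1 and 1.13 with 64. On the 6TCF day 0 arrays 121 and 113 probe sets carried exactly the same deposited intensity as Kera, 8.11 and 9.94, so the level there was not resolved from many others.

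Other genes of corneal stroma cells were read beside Kera. Of the 6 such genes listed, Kera among them, 5 were on the array. Called higher were 3 at day 5 of 6TCF (Kera, Aqp1 and Aldh3a1), 2 at day 5 of SGCF (Aqp1 and Aldh3a1) and 2 at day 10 of each arm (Kera and Aqp1). Over all genes 15.1% and 23.2% were called higher at days 5 and 10 of 6TCF, and 12.8% and 20.5% in SGCF. Aqp1, a water channel, went from a mean log2 level of 8.22 to 10.89 and 10.73 in 6TCF and from 8.26 to 8.97 and 10.54 in SGCF. Ptgds went from 6.28 to 6.19 and 5.99 in 6TCF. Aldh3a1, the corneal crystallin enzyme, had a mean of 4.73, 5.28 and 4.94 at days 0, 5 and 10 of 6TCF and 4.93, 5.62 and 5.14 in SGCF, above the filter level at day 5 of each arm and below it on the other days.

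Fibromodulin, a class II keratan sulfate proteoglycan abundant in tendon, binds collagen I and guides its crosslinking by lysyl oxidase. Fmod on its brightest probe set measured 8.02 and 7.95 at day 0 of 6TCF, 7.40 and 7.12 at day 5, and 7.11 and 7.22 at day 10. In the SGCF arrays it stood at 9.48 and 8.84, then 4.87 and 5.33, then 5.21 and 5.07. The later SGCF arrays lay around the filter level, and the later 6TCF arrays did not overlap with them. Fmod fell, with log2 changes of -4.06 ± 0.20 and -4.02 ± 0.20 in SGCF (limma adjusted p = 5.78e-08 and 4.09e-08). Both later means were below the filter level, and the day 5 value ranged from -4.89 to -2.25 over the alternatives. In 6TCF it fell, with log2 changes of -0.73 ± 0.20 and -0.82 ± 0.20 (adjusted p = 0.0192 and 0.00638). The day 5 call in 6TCF was lost without day 0 replicate 1 (-0.69, adjusted p = 0.101), day 0 replicate 2 (-0.76, 0.0769) or day 5 replicate 2 (-0.59, 0.128), and with a pseudocount of 1 (-0.79, adjusted p = 0.0611).

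The 6 Fmod probe sets differed in the size of the fall. The brightest, 1456084_x_at, gave the 4.06 above at day 5 of SGCF, and the other 5 gave -1.60 to -2.15, each called. Their day 0 means in SGCF were 6.40 to 7.52, nearer to the filter level than the 9.16 of the brightest. The suffix x marks probe sets whose probes may also bind other transcripts, and 5 of the 6 carry it. The mean over all 6 gave -2.25 at day 5 of SGCF. Levels near the filter were not finely resolved: on the SGCF day 5 arrays 2 of the dimmer Fmod probe sets carried exactly the same deposited intensity as Omd, 20.2 and 15.7, and up to 344 probe sets shared 1 value on an array. Tendon cells are known for Fmod, and the tendon gene Tnmd went from a mean of 9.41 at day 0 of SGCF to 5.66 and 6.36, and from 8.62 to 6.31 and 6.04 in 6TCF. Of the 5 of 6 tendon markers on the array, 3 were called lower at day 5 and 2 at day 10 of SGCF. In 6TCF 2 were called lower at each time, and 0 were called higher in either arm at these times. The shares of all genes called lower were 12.7% and 18.3% in SGCF and 12.6% and 20.0% in 6TCF. The marker Egr1 went from a mean of 11.09 to 8.513 and 7.995 in 6TCF and from 11.043 to 10.625 and 10.364 in SGCF. Means of Thbs4 and Comp lay between 4.91 and 5.44, around the filter level. The part of tendon cells in the fall of Fmod was not tested.

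Prolargin, a class II member with a basic heparin-binding end, anchors basement membrane proteins to collagen. Prelp measured 6.00 and 5.77 at day 0 of 6TCF, 5.98 and 5.67 at day 5, and 5.83 and 5.95 at day 10, so the groups overlapped. SGCF cultures gave 6.88 and 6.67, then 5.61 and 5.51, then 5.54 and 5.47. The day 0 arrays of SGCF lay above all 6TCF arrays, and the later SGCF arrays lay slightly below all of them. Prelp fell, with log2 changes of -1.21 ± 0.14 and -1.27 ± 0.14 in SGCF (limma adjusted p = 5.23e-05 and 2.45e-05). In 6TCF its changes were -0.06 ± 0.14 (95% interval -0.37 to 0.25) and 0.00 ± 0.14 (-0.31 to 0.31). The dimmer probe set, 1416322_at, gave -0.45 ± 0.14 at day 5 of SGCF (adjusted p = 0.0355) and -0.19 ± 0.14 at day 10 (adjusted p = 0.322).

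In SGCF, macrophage markers as a sum fell by day 5 and stayed low. Fmod and the brighter Prelp probe set also fell and stayed low there, whereas Aspn, Ogn and Bgn fell and then rose between days 5 and 10. The dimmer Prelp probe set had means of 5.92, 5.47 and 5.73 there. In 6TCF the sum also fell, while Prelp had no called change. The summed normalized intensity of the 14 of 15 such markers on the array was 6633 to 7613 at day 0 of SGCF, 696.9 to 864.4 at day 5 and 688.8 to 804.4 at day 10. In 6TCF it was 2839 to 3034, 987.3 to 1103 and 1725 to 1832. Of the 13 tested, 12 fell and 1 rose (Cd14) by day 5 of SGCF, with the same counts by day 10. Over all genes 12.7% and 18.3% were called lower at these times and 12.8% and 20.5% higher. In 6TCF 11 fell by day 5 and 9 by day 10, and 1 rose at each time. Over all genes 12.6% and 20.0% were called lower there and 15.1% and 23.2% higher. Between days 5 and 10, 7 of the 13 rose and 0 fell in 6TCF (8.69% and 7.12% of all genes). In SGCF 0 rose and 1 fell in that interval (11.7% and 9.97%). The change of Fmod in that interval of 6TCF was -0.09, not called. Itgam was below the filter level in all 6 groups. The part of these cells in the falls of Prelp, Fmod, Aspn, Ogn and Bgn was not tested.

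Osteoglycin, also called mimecan, is a class III member of bone, cornea and other connective tissue. Ogn measured 10.97 and 10.82 at day 0 of 6TCF, 9.52 and 10.16 at day 5, and 10.46 and 10.33 at day 10. In SGCF the arrays read 10.92 and 10.95, then 7.57 and 7.78, then 11.15 and 11.90. The dip at day 5 was deeper in SGCF, and both SGCF day 10 arrays lay above all day 0 arrays. Ogn fell by 3.26 ± 0.24 by day 5 of SGCF (9.56-fold, limma adjusted p = 9e-07) and then rose by 3.85 ± 0.24 (14.4-fold, adjusted p = 7.86e-07), the largest rise of the 10674 genes between days 5 and 10 of SGCF. Its day 10 level differed from day 0 by 0.59 ± 0.24 (adjusted p = 0.0665), which became 0.96 (adjusted p = 0.00898) without day 10 replicate 1. In 6TCF it fell by 1.06 ± 0.24 by day 5 (adjusted p = 0.00525), a call lost without day 5 replicate 1 (-0.74, adjusted p = 0.0647). Its change by day 10 of 6TCF was -0.50 ± 0.24 (adjusted p = 0.106). On the other Ogn probe set, 1419662_at, that change was called (-0.99 ± 0.19, adjusted p = 0.00154).

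**Figure D3:**
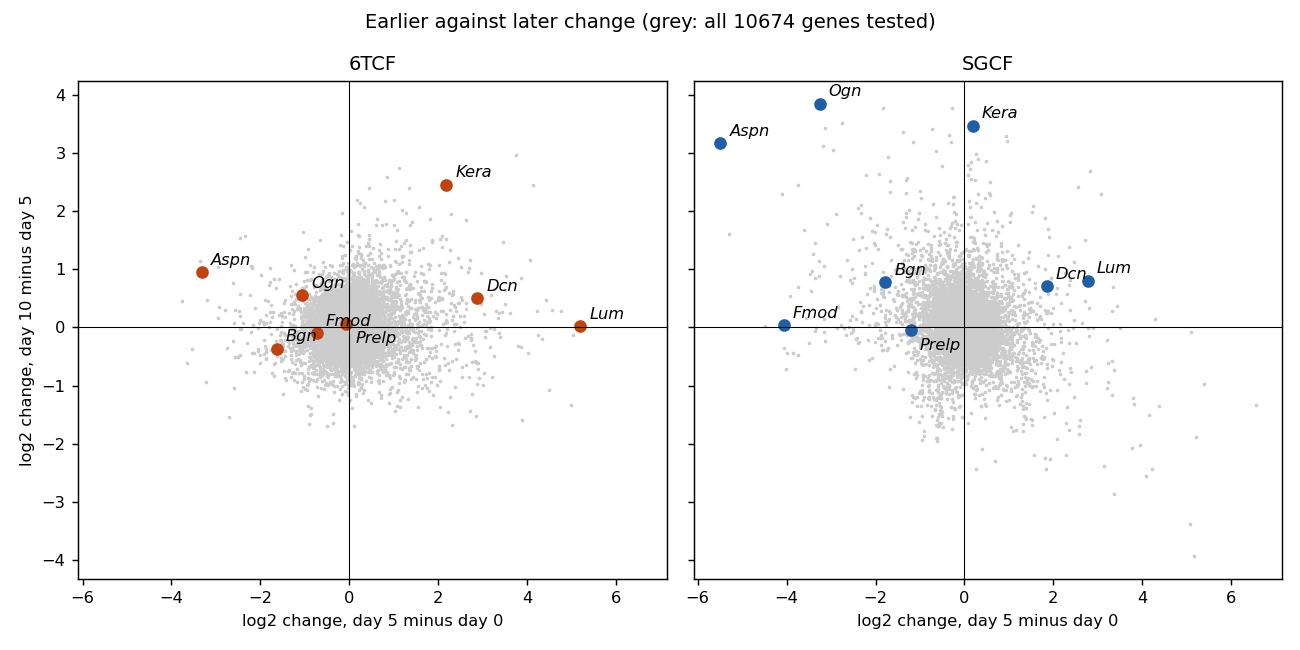
Log2 change from day 0 to day 5 (horizontal axis) against the change from day 5 to day 10 (vertical axis) in 6TCF (left) and SGCF (right), with the 8 genes named over the 10674 genes tested in grey. Day 5 enters both axes, with opposite sign. In SGCF, Aspn and Ogn lie at the upper left and Kera near 0 on the horizontal axis at 3.47 on the vertical.

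Between days 5 and 10 the members that were called all rose, and the difference between the arms over this interval was not tested. In 6TCF 2 of 8 rose (Dcn and Kera) and 0 fell, where 15.8% of all genes were called, 8.69% higher and 7.12% lower. Without 6TCF day 5 replicate 1, day 10 replicate 1 or day 10 replicate 2, the count in 6TCF was 1, while all genes called went from 1688 to 372, 365 and 694. In SGCF 6 of 8 rose (Dcn, Lum, Kera, Ogn, Aspn and Bgn) and 0 fell, where 21.7% were called, 11.7% higher and 9.97% lower. Fmod and Prelp were the members without a later rise in SGCF, with changes of 0.04 ± 0.20 and -0.05 ± 0.14. The median later change of the 8 was 0.28 in 6TCF and 0.79 in SGCF.

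At day 0, 4 members were higher in SGCF than in 6TCF and 0 were lower, where 17.4% of all genes were called, 8.59% higher and 8.81% lower. They were Lum (2.21 ± 0.15, limma adjusted p = 1.5e-05), Fmod (1.17 ± 0.20, adjusted p = 0.00381), Prelp (0.89 ± 0.14, adjusted p = 0.00244) and Dcn (0.55 ± 0.13, adjusted p = 0.0135). For Fmod, 2 of its 6 probe sets were called, and the other 4 gave 0.10 to 0.43 (adjusted p = 0.0971 to 0.811), with 0.48 for the mean of all 6. The Dcn call was lost without 6TCF day 0 replicate 2 (0.38, adjusted p = 0.154) or SGCF day 0 replicate 2 (0.54, adjusted p = 0.0508), and with only the day 0 arrays in the fit (adjusted p = 0.0863). Aspn was higher by 0.96 ± 0.38 (adjusted p = 0.0994) on the probe set used, and by 1.45 ± 0.19 on the other (adjusted p = 0.000645). Ogn and Bgn differed by 0.04 ± 0.24 (95% interval -0.48 to 0.55) and -0.19 ± 0.18 (-0.59 to 0.21). On these arrays all 13 macrophage markers tested were higher in SGCF, and all 4 mesothelial markers tested were lower. The part of these cells in the day 0 differences of the members was not tested. The day 0 arrays enter every change from day 0, so a difference between arms at day 0 carries over into the difference between those changes. The mean of Lum was 12.30 in SGCF and 12.51 in 6TCF at day 5, and 13.11 and 12.54 at day 10. A lower change of Lum in SGCF is thus not a lower level at day 10.

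The difference between the arms was tested on the changes themselves, as the SGCF change minus the 6TCF change. By day 5, 7 of 8 members had a lower change in SGCF and 0 a higher one, where 8.98% of all genes were called, 2.91% higher and 6.06% lower. On the probe set used for each gene, the largest was for Fmod (-3.33 ± 0.29, limma adjusted p = 2.97e-05), followed by Lum (-2.42 ± 0.22, adjusted p = 3.46e-05), Ogn (-2.20 ± 0.33, adjusted p = 0.00138), Aspn (-2.18 ± 0.54, adjusted p = 0.0245) and Kera (-1.99 ± 0.22, adjusted p = 0.000158). The other Fmod probe sets gave -0.71 to -1.70, smaller in size than these values of Lum, Ogn, Aspn and Kera. For Bgn the difference was -0.15 ± 0.26 (95% interval -0.71 to 0.41). For Aspn the call was lost on leaving out any of 5 single arrays, 6TCF day 0 replicate 1 or 2, SGCF day 0 replicate 2 or SGCF day 5 replicate 1 or 2 (-1.85 to -2.19, adjusted p = 0.0656 to 0.0794). Its other probe set gave -2.28 ± 0.27 (adjusted p = 0.000302).

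By day 10, 5 members had a lower change in SGCF and 2 a higher one, where 25.7% of all genes were called, 12.3% higher and 13.4% lower. The lower changes were those of Fmod (-3.20 ± 0.29), Lum (-1.65 ± 0.22), Prelp (-1.27 ± 0.20), Kera (-0.98 ± 0.22) and Dcn (-0.82 ± 0.18). Ogn (1.09 ± 0.33, limma adjusted p = 0.0324) and Bgn (1.00 ± 0.26, adjusted p = 0.0163) were higher, and Aspn differed by 0.04 ± 0.54 (95% interval -1.13 to 1.21). The Ogn call was lost without any 1 of 7 arrays (both day 0 replicates of each arm, both 6TCF day 10 replicates and SGCF day 10 replicate 2, 0.72 to 1.17, adjusted p = 0.0523 to 0.111). It was also lost under median scaling (0.99, adjusted p = 0.0541) and a pseudocount of 1 (1.10, adjusted p = 0.0559), whereas its other probe set gave 1.41 ± 0.28 (adjusted p = 0.00444). The Bgn call was lost without 6TCF day 0 replicate 1, 6TCF day 10 replicate 1 or SGCF day 10 replicate 1 (0.85 to 0.94, adjusted p = 0.0529 to 0.0731). All 3 Bgn probe sets gave a called difference, of 1.00 to 1.20.

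For Fmod and Prelp the size of the arm difference depended on the probe set. At day 5 the 6 Fmod probe sets gave -0.71 to -3.33, and 2 of them, 1437324_x_at and 1438966_x_at, were not called (adjusted p = 0.244 and 0.251). At day 10 the same 2 gave adjusted p of 0.0853 and 0.0561. The dimmer Prelp probe set gave -0.49 ± 0.20 at day 5 and -0.42 ± 0.20 at day 10, neither called (adjusted p = 0.169 and 0.145).

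**Figure D4:**
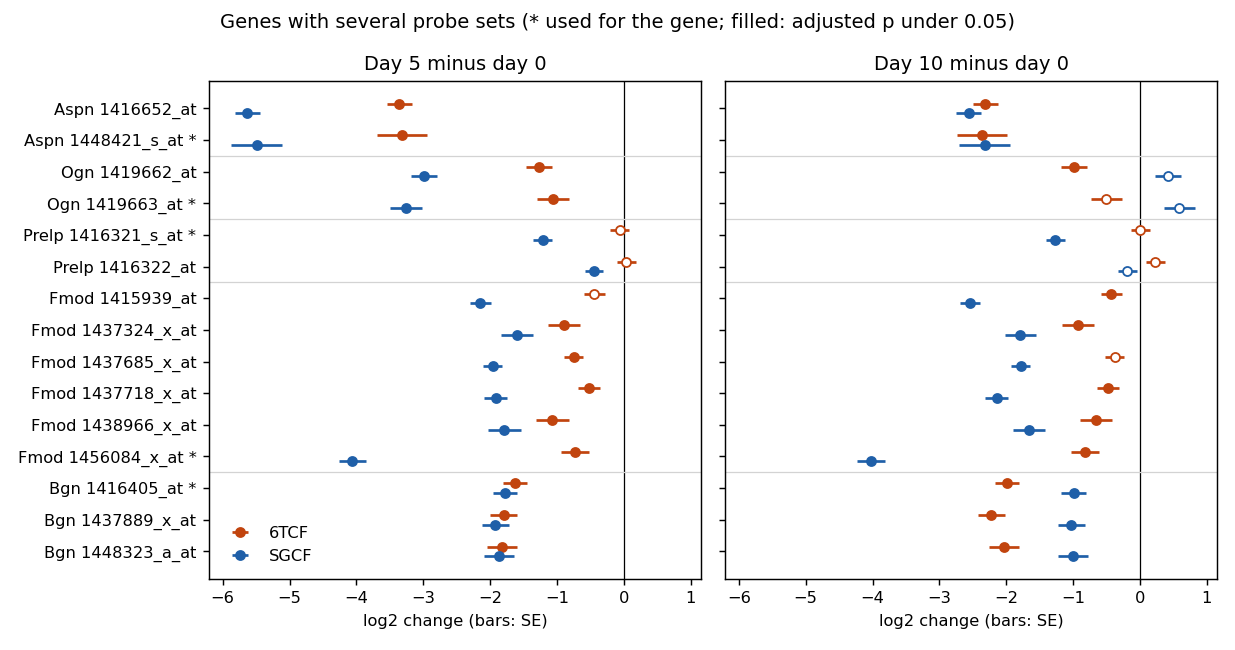
Log2 change from day 0 at day 5 (left) and day 10 (right), with SE bars, for every probe set of the 5 genes that have several, in 6TCF and SGCF. Filled points had an adjusted p under 0.05 over the probe sets tested, and an asterisk marks the probe set used for the gene. The 3 Bgn probe sets lie together, while the starred Fmod probe set lies at -4.06 and -4.02 in SGCF and the other 5 lie nearer to 0.

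Of 10 further family genes listed, 4 were on the array. Osteomodulin, the class II neighbour of Aspn and Ogn, is a keratan sulfate protein of bone. Omd went from a mean log2 level of 6.30 to 5.66 and 5.46 in 6TCF and from 7.42 to 5.38 and 6.04 in SGCF. It was called lower in all 4 comparisons with day 0 and rose by 0.67 ± 0.18 between days 5 and 10 of SGCF, and its SGCF change minus its 6TCF change by day 5 was -1.40 ± 0.25. The 6TCF day 5 call of Omd was lost without day 0 replicate 2 (-0.48, limma adjusted p = 0.166) or day 5 replicate 1 (-0.55, adjusted p = 0.109), and the SGCF day 10 call with all 4 day 0 arrays as 1 group (-0.82, adjusted p = 0.0691). The later rise of Omd in SGCF was lost without day 5 replicate 2 or either day 10 replicate (0.57 to 0.73, adjusted p = 0.0552 to 0.111) and with a pseudocount of 64 (0.35, adjusted p = 0.0502). Opticin, a class III member known from the vitreous of the eye, was also lower in all 4: Optc went from 6.11 to 5.27 and 5.05 in 6TCF and from 6.22 to 5.17 and 5.38 in SGCF, levels close to the filter. Epyc and Chad stayed below the filter level in all 6 groups, with Epyc, the chromosome 10 neighbour of Kera, between 4.57 and 5.15.

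Read by position, the chromosome 10 genes Dcn, Lum and Kera were higher at day 10 of both arms, and their neighbour Epyc was not detected above the filter. The chromosome 13 genes Aspn, Omd and Ogn were all lower at day 5 of both arms and all rose from day 5 to day 10 of SGCF. On chromosome 1, Optc, Fmod and the brighter Prelp probe set were lower at both times in SGCF, at later levels close to the filter. The dimmer Prelp probe set was called lower there at day 5 and not at day 10. Prelp had no called change from day 0 in 6TCF. These are descriptions of few genes. The likeness of time courses was measured as the root mean square difference between centred means of the 6 groups, where a smaller value means more alike. Each gene was read on its brightest probe set. Other probe sets of Fmod and Prelp gave changes of other sizes, so the values for these genes hold for the probe set used. Among neighbours it was 0.90 for Dcn and Lum, 1.02 for Dcn and Kera, 1.46 for Kera and Lum, 1.16 for Aspn and Ogn and 1.11 for Fmod and Prelp. Pairs on different chromosomes reached like values, 1.01 for Bgn and Ogn, 1.12 for Bgn and Fmod, 1.18 for Ogn and Prelp and 1.20 for Aspn and Bgn. The smallest value between members was 0.65, for Bgn and Prelp, which lie on different chromosomes. Their ranges over the 6 group means, 1.99 and 1.26, were the smallest among the members. The value for Aspn and Lum was 3.66.

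Among all other genes tested, those most like each member were read off by the same measure over the 6 groups, again on the brightest probe set of each gene. Nearest to Lum was Agtr2, an angiotensin receptor gene, at 0.41, with group means of 7.43, 11.99 and 12.28 in 6TCF and 8.94, 12.14 and 11.92 in SGCF. Nearest to Dcn was Axin2, a feedback inhibitor of Wnt signalling, at 0.26, with 5.80, 8.87 and 8.81 in 6TCF and 5.72, 8.07 and 8.80 in SGCF. Nearest to Kera was Spon1, a secreted matrix protein gene, at 0.29, with 4.68, 7.31 and 9.15 in 6TCF and 4.69, 5.62 and 8.91 in SGCF. Nearest to Ogn was the aggrecanase gene Adamts5 at 0.48 and nearest to Aspn was the lysyl oxidase gene Lox at 0.50. Nearest to Fmod was Cxcl14 at 0.36, nearest to Bgn was Papss2 at 0.18 and nearest to Prelp was Tm6sf1 at 0.09, followed by the leukocyte integrin gene Itgb2 at 0.10. The next nearest were Inhbb and Cadps for Lum, Selenbp1 and Cpz for Dcn, C1s1 and Cyp7b1 for Kera, Nrep and Fibin for Ogn, and Rspo2 and Tnfrsf11b for Aspn. For Fmod they were Cdc42ep3 and Pkp2, and for Bgn F3 and Amotl2, with Cdh17 next for Prelp. The values are smaller for members with a small range, and a shared time course over 6 means says nothing of shared control.

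The enzymes that build the sugar chains of these proteins were read next, by counts of called genes against 27.7% and 43.2% called over all genes at days 5 and 10 of 6TCF and 25.5% and 38.8% in SGCF. Of 20 chondroitin and dermatan sulfate genes tested, 4 were higher and 6 lower at day 5 of 6TCF, 3 and 6 at day 10, 5 and 2 at day 5 of SGCF, and 3 and 3 at day 10. The called share is near or below that of all genes at day 10 of both arms. Papss2, which makes the sulfate donor, fell, with log2 changes of -1.54 ± 0.18 and -2.12 ± 0.18 at days 5 and 10 of 6TCF and -1.41 ± 0.18 and -1.10 ± 0.18 in SGCF. The related gene Papss1 rose by 0.71 ± 0.15 by day 5 of 6TCF, the sulfotransferase gene Chst12 fell by 0.71 ± 0.14, and Csgalnact2, which starts the chain, rose by 0.77 ± 0.22 by day 5 of SGCF. The list medians lay between -0.20 and 0.16 in these 4 comparisons.

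Of 7 keratan sulfate genes tested, 2 were higher and 2 lower at both times of 6TCF, 2 and 1 at day 5 of SGCF, and 3 and 3 at day 10, beside the same shares over all genes. Fut8, which adds core fucose, rose by 1.00 ± 0.12 by day 5 of 6TCF. The sulfotransferase gene Chst1 fell by 1.18 ± 0.14 by day 10 of 6TCF, Chst2 fell, with log2 changes of -0.75 ± 0.19 there and -0.78 ± 0.19 at day 10 of SGCF, and Chst5 rose by 1.15 ± 0.19 by day 10 of SGCF. The galactosyltransferase gene B4galt1 rose by 0.66 ± 0.14 by day 5 of each arm, and B4galt4 fell by 1.04 ± 0.22 by day 5 of SGCF. The list medians were 0.07 and 0.15 at days 5 and 10 of 6TCF and 0.06 and -0.37 in SGCF.

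The fibrillar collagens are the main partners of the members. Of 9 fibrillar collagen genes tested, 1 was higher and 5 lower at day 5 of 6TCF, 1 and 6 at day 10, 0 and 7 at day 5 of SGCF, and 1 and 3 at day 10. Over all genes 12.6%, 20.0%, 12.7% and 18.3% were called lower in these comparisons, and 15.1%, 23.2%, 12.8% and 20.5% higher. Col11a1, a minor chain that starts fibrils, fell, with log2 changes of -2.70 ± 0.23 and -4.24 ± 0.23 in 6TCF and -2.52 ± 0.23 and -1.52 ± 0.23 in SGCF. Col2a1 fell, with log2 changes of -2.33 ± 0.14 and -3.10 ± 0.14 in 6TCF, and Col5a2 fell by 1.97 ± 0.16 by day 5 of SGCF. Between days 5 and 10 of SGCF 6 of the 9 rose and 0 fell (11.7% and 9.97% of all genes), and in 6TCF 0 rose and 3 fell (8.69% and 7.12%). The list medians were -0.70 and -0.82 at days 5 and 10 of 6TCF and -1.07 and -0.23 in SGCF.

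Of 13 genes for fibril-associated collagens and crosslinking, 1 was higher and 5 lower at day 5 of each arm, 0 and 7 at day 10 of 6TCF, and 2 and 5 at day 10 of SGCF, beside the shares of all genes just given. Lox, the enzyme whose work on collagen fibromodulin guides, fell, with log2 changes of -2.95 ± 0.18 and -2.79 ± 0.18 at days 5 and 10 of 6TCF and -4.11 ± 0.18 and -1.82 ± 0.18 in SGCF. Loxl4 fell in all 4 comparisons, with log2 changes of -1.13 to -2.29. Plod2, a lysyl hydroxylase gene, fell by 1.17 ± 0.13 by day 10 of 6TCF, Col14a1 rose by 0.95 ± 0.19 by day 5 of 6TCF, and Col12a1 fell by 1.41 ± 0.21 by day 5 of SGCF. The list medians were -0.44 and -0.64 at days 5 and 10 of 6TCF and -0.27 and -0.29 in SGCF.

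Of 15 protease genes tested, 6 were higher and 4 lower at day 5 of 6TCF, 7 and 4 at day 10, 2 and 6 at day 5 of SGCF, and 6 and 2 at day 10, beside 27.7%, 43.2%, 25.5% and 38.8% of all genes called in either direction. Mmp3, stromelysin, which can cut decorin, rose by 4.06 ± 0.16 and 5.21 ± 0.16 in 6TCF and by 5.39 ± 0.16 and 4.42 ± 0.16 in SGCF. Tll1, of the BMP1 family that trims the propeptides of several members, fell, with log2 changes of -3.54 ± 0.18 and -3.92 ± 0.18 in 6TCF and -3.17 ± 0.18 and -3.02 ± 0.18 in SGCF. Adamts15 rose by 2.97 ± 0.18 and 3.37 ± 0.18 in 6TCF, and Adamts5 fell by 3.19 ± 0.19 by day 5 of SGCF. Their median was 0.00 and -0.12 at days 5 and 10 of 6TCF and -0.08 and 0.23 in SGCF.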

How the data were processed

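Mouse embryonic fibroblasts were measured on 12 Affymetrix arrays in 6 groups of 2, which were taken from the sample titles. The authors deposited linear intensity values for 22690 probe sets. RMA, limma and MAS5 appear in the submitters' processing notes with neither role nor version, and the tool behind the deposited intensity is not stated in the sources used here. Array medians differed between arms, so log2(intensity + 16) was taken and quantile-normalized. The 20380 probe sets that the platform annotation gives exactly 1 symbol (691 have several, 1555 none) named 12393 genes, each read on its brightest probe set by mean. Genes whose highest group mean exceeded the 25th percentile of all values, log2 5.25, were kept (10674).

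Linear models were fitted over all 12 arrays with limma 3.58.1 under R 4.3.3 (lmFit, contrasts.fit, eBayes), with 6 group means, 6 residual and 5.75 prior degrees of freedom. There were 9 comparisons, each with Benjamini-Hochberg adjustment over all genes tested. A separate fit ran over every probe set. Errors are SE from the fit. The fit was tested on simulated data. The members and gene lists were chosen with earlier results of these data known. Genes named are all family members, up to 3 called genes of largest change per list and comparison with day 0, and the 3 genes of most similar group means for each member. Gene names in the intensity table come from the platform annotation, and 20351 of its probe sets matched the RefSeq table of assembly GRCm38.p6 by gene number. The alternatives tried were median scaling, pseudocounts of 1 and 64, no filter, the mean of a gene's probe sets, a replicate block, fewer groups in the fit, all 4 day 0 arrays as 1 group, and leaving out each array.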

Additional observations from a re-analysis of the deposited data

Results flagged for a closer look

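For 15 values of family genes, the change from day 0 in SGCF differed from that in 6TCF by a test of the difference itself (interaction term in limma, adjusted p under 0.05). A batch of arrays and the arm cannot be told apart for any of them. At day 5 the SGCF change minus the 6TCF change was -3.33 for Fmod, -2.42 for Lum, -2.20 for Ogn, -2.18 for Aspn, -1.99 for Kera, -1.40 for Omd, -1.15 for Prelp and -1.03 for Dcn. At day 10 it was -3.20 for Fmod, -1.65 for Lum, -1.27 for Prelp, -0.98 for Kera and -0.82 for Dcn, while it was 1.09 for Ogn and 1.00 for Bgn. Ogn is the gene whose difference was below 0 at day 5 and above 0 at day 10 with both called. Its day 10 call was lost on leaving out most of the single arrays involved, under median scaling and with a pseudocount of 1. Its other probe set gave 1.41 at day 10, also called. The Aspn call at day 5 and the Bgn call at day 10 were lost on leaving out certain single arrays. The dimmer Prelp probe set gave -0.49 and -0.42 at days 5 and 10, neither called. The Fmod values are those of its brightest probe set. Its other probe sets gave -0.71 to -1.70 at day 5 and -0.86 to -2.11 at day 10. For Lum, the SGCF arrays were 2.21 higher at day 0.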

How the results depend on the processing

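Of 670 values recomputed under the alternatives that keep all arrays, 645 kept direction and side of the threshold, as did 388 of 440 that leave out 1 array. The count of members called stayed within 1.5 times the main count under every alternative except leaving out an array for 6TCF day 10 minus day 5, where it ranged from 1 to 3. With the replicate number as a replicate block the counts of members called in the 9 comparisons were 7, 6, 2, 7, 7, 6, 4, 7 and 7, the same as without it. Deviations of arrays with the same number correlated at -0.28 to 0.11 over 15 pairs of groups, with 2 over 0.1. The labels do not say whether arrays of the same number belong together, and weak correlations cannot settle it.

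Values with no call changed sign as follows, and the cause was not tested. With the mean of a gene's probe sets, day 10 minus day 5 was 0.119 (6TCF) and -0.076 (SGCF) for Fmod and 0.104 (SGCF) for Prelp. The arm difference of Aspn by day 10 was -0.103 there and -0.140 with a pseudocount of 64. With median scaling, Fmod was -0.008 for SGCF day 10 minus day 5 and Bgn 0.052 between arms at day 0. With the 4 day 0 arrays as 1 group, Prelp was -0.440 at day 10 of 6TCF. On leaving out 1 array, Prelp ranged from -0.220 to 0.096 at day 5, -0.110 to 0.115 at day 10 and -0.094 to 0.223 for day 10 minus day 5 of 6TCF. In that later interval of 6TCF, Fmod ranged from -0.232 to 0.045 and Lum from -0.009 to 0.059, and in SGCF Fmod from -0.185 to 0.268 and Optc from -0.005 to 0.418. Between arms, Ogn ranged from -0.041 to 0.112 and Bgn from -0.466 to 0.091 at day 0, Bgn from -0.430 to 0.127 for the change by day 5 and Aspn from -0.278 to 0.365 for that by day 10.

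Counts over all genes depended more on single arrays. Leaving out a 6TCF day 0 array took 6TCF day 5 from 2958 to 1848 or 1757, the arm difference by day 5 from 958 to 596 or 565, and that by day 10 from 2740 to 1652 or 1447 (1457 without 6TCF day 10 replicate 1). SGCF day 10 minus day 5 went from 2318 to 1473 (day 5 replicate 1 left out) or 1376 (day 10 replicate 2). The day 0 comparison went from 1857 to between 386 and 3004 without 1 array, and to 631 with only its own groups in the fit. With only the groups compared, SGCF day 5 went from 2727 to 1488 and SGCF day 10 from 4144 to 2712. Signal over background limits Kera, Aspn, Fmod, Prelp, Omd and Optc in groups near log2 5.25.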

Other observations

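Other proteoglycan genes and the growth factors that family members bind were read on the same arrays. Of 22 other proteoglycan genes tested, 6 were higher and 4 lower at day 5 of 6TCF, 7 and 7 at day 10, 5 and 5 at day 5 of SGCF, and 8 and 5 at day 10, where 27.7%, 43.2%, 25.5% and 38.8% of all genes were called. Col18a1, a basement membrane collagen that carries heparan sulfate, rose by 3.80 ± 0.17 and 3.48 ± 0.17 at days 5 and 10 of 6TCF and by 2.72 ± 0.17 and 3.17 ± 0.17 in SGCF. The glypican gene Gpc3 rose by 1.48 ± 0.16 and 1.91 ± 0.16 in 6TCF and by 1.71 ± 0.16 at day 10 of SGCF. The syndecan gene Sdc3 fell, with log2 changes of -1.48 ± 0.13 and -2.02 ± 0.13 in 6TCF. Srgn, a proteoglycan of blood cells, fell by 2.32 ± 0.31 and Esm1, a proteoglycan of endothelial cells, rose by 1.93 ± 0.26 by day 5 of SGCF. The list medians lay between -0.03 and 0.17.

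Of 20 genes for bound growth factors and receptors, 7 were higher and 8 lower at day 5 of 6TCF, 8 and 9 at day 10, 3 and 8 at day 5 of SGCF, and 10 and 5 at day 10, beside the same shares over all genes. Bmp2 rose by 5.00 ± 0.26 and 3.66 ± 0.26 in 6TCF and by 6.55 ± 0.26 and 5.21 ± 0.26 in SGCF. Ccn2, the connective tissue growth factor that decorin binds, fell, with log2 changes of -3.65 ± 0.13 and -4.27 ± 0.13 in 6TCF and -3.35 ± 0.13 at both times in SGCF. Ccn4 fell, with log2 changes of -2.60 ± 0.14 and -2.52 ± 0.14 in 6TCF, and Tgfb2 rose by 2.96 ± 0.14 by day 10 of SGCF. The list medians lay between -0.25 and 0.34.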
